A study of Homo sapiens with 4 samples.

Results

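The genes described here are the ZNF genes of human chromosome 19, chosen as the rows of the deposited gene table that lie on chromosome 19 and carry a symbol made of ZNF, a number and at most a single further letter. This gave 263 of the 61806 genes of the table, of which 247 are protein-coding and 16 are pseudogenes in GENCODE v29. A further 294 ZNF genes lie on other chromosomes, and 1833 other named genes lie on chromosome 19. Both sets serve for comparison. The 1833 are all named genes there outside the rule, so ZNF antisense and read-through genes are among them.

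Poly(A) RNA was sequenced from 2 wild-type human cancer cell lines, MDA-MB-231, a breast cancer line, and MDA-MB-435, which the series calls melanoma. Each line was left as a control or treated with 10 µM CPYPP, an inhibitor of DOCK proteins that the study used to induce paraptosis, a form of cell death with cytoplasmic vacuoles, for 6 h. Each of the 4 conditions has 1 library, of 22359735 (MDA-MB-231 control), 17196385 (MDA-MB-231 CPYPP), 22663954 (MDA-MB-435 control) and 19489282 counts (MDA-MB-435 CPYPP). There are no replicates within a line, so a fold change within a line carries a 95% interval (Clopper-Pearson) for counting error only, and its test compares the libraries, not the conditions. The lines are 2 established cultures of different origin, and fewer cells and less RNA per cell cannot be told apart in such bulk samples. SOX10, the defining transcription factor of the neural crest and melanocyte lineage, had 3031 counts in the MDA-MB-435 control and 0 in the MDA-MB-231 control. Of the other melanocyte markers, S100B had 1055 counts in the MDA-MB-435 control against 0 and DCT 658 against 1, whereas MITF had 1405 against 1585 and PMEL 13 against 34, which was called lower in MDA-MB-435. The pigment genes TYR and MLANA had at most 3 and 14 counts in any library, so these markers did not all follow the label. Of the markers listed for MDA-MB-231, KRT8, an epithelial keratin, had 12813 counts there against 522 in the MDA-MB-435 control, KRT18 8212 against 5740 and AXL 27961 against 12648, whereas VIM had 38484 against 98483 and CD44 27537 against 36689.

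ZNF genes encode proteins with arrays of C2H2 zinc fingers, small zinc-binding modules that each contact a few bases of DNA. Most of those on chromosome 19 arose by tandem duplication, so that relatives lie side by side in clusters, and many carry a KRAB domain at the amino end. A KRAB domain recruits TRIM28 (KAP1), a scaffold that brings the histone methyltransferase SETDB1 and heterochromatin protein 1, and many such factors silence transposable elements. In the longest GENCODE coding sequence of each protein-coding member, a spacing pattern of cysteines and histidines found a median of 12 fingers (range 0 to 36). A strict pattern for the KRAB A box was found in 183 of the 247 coding members, and the KEGG class of KRAB zinc finger proteins was attached to 243 of the 263 members in the table. The strict pattern was found in 2 of the 24 members of the group from ZNF575 to ZNF296, so its counts are a lower limit.

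In the RefSeq promoter table (GRCh38.p14), 216 members had at least 1 promoter, giving 268 windows from 250 bases before to 50 after a start. The letters CTTCCG, the core of sites bound by ETS factors, were searched on both strands, so that CGGAAG on the printed strand also counts. They were found in 145 of the 268 windows (54.1%), against 19.5% of all 35116 promoters, 39.9% of the promoters of ZNF genes on other chromosomes and 24.3% of those of other chromosome 19 genes. This motif was chosen after the sequences had been read. The TATA box letters TATAAA were in 2.61% of members' windows and 11.5% of all promoters, and the median number of CpG pairs was 20 against 14. The heat shock element core GAANNTTC was in 7.84% against 6.77%, the C/EBP-ATF element TGATGCAAT in 0.373% against 0.236%, and the antioxidant response element TGACNNNGC in 14.6% against 13.3%. These motifs were also searched on both strands, and they do not overlap by construction, except that CTTCCG adds a CpG. Shares describe letters in a window and say nothing about binding.

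Stretches before the starts of 5 members are printed 5′ to 3′ on the strand of the gene, cut where an annotated exon begins, with CTTCCG or its complement in capitals. ZNF222 and ZNF317 rose in both lines and ZNF180 fell in both, as given further on, ZNF284 is a near neighbour of ZNF222 that was lower in CPYPP-treated MDA-MB-231 cells, and ZNF347 had no count in MDA-MB-435. The stretches are chr19:44025263-44025341 (plus strand), chr19:9140147-9140379 (plus), chr19:44500525-44500772 (minus), chr19:44071909-44072143 (plus) and chr19:53159076-53159212 (minus).
ZNF222: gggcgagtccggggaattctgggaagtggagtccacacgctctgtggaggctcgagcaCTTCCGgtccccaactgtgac
ZNF317: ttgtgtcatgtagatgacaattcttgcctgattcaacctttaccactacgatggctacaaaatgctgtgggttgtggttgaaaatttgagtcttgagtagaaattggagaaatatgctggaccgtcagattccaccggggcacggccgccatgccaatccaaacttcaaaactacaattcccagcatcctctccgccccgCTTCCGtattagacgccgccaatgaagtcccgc
ZNF180: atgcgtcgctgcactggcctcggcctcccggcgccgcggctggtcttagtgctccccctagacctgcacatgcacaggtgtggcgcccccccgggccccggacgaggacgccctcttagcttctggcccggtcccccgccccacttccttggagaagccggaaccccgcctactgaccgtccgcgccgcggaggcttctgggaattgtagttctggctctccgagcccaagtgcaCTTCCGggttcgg
ZNF284: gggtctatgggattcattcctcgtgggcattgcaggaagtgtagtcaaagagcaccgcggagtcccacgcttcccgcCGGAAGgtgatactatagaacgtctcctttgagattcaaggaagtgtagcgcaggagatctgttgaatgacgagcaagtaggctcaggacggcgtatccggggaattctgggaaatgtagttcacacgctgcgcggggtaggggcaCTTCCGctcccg
ZNF347: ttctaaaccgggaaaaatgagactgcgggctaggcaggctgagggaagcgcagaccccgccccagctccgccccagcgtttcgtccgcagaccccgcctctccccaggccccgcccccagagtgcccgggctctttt
The letters stand once in ZNF222, ZNF317 and ZNF180, 2 times in ZNF284, once on each strand, and are absent from the printed stretch of ZNF347. Members that rose and members that fell thus both held them. Not all did. The stretches of ZNF426, ZNF227 and ZNF761, which rose in both lines, and of ZNF554, ZNF792 and ZNF443, called lower in a line, held none. Among other called members, those of ZNF829, ZNF460, ZNF547, ZNF671 and ZNF816 held the letters, as did 1 stretch of ZNF345. Those of ZNF432 held none. The cut stretches differ in length, as with 37 bases in ZNF829 and 250 in ZNF554, so they are not compared on like windows.

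As a group, the chromosome 19 ZNF genes were a small part of the RNA. Their summed counts were 85979 in the MDA-MB-231 control and 72165 after CPYPP, which is 0.385% and 0.420% of the library. In MDA-MB-435 they were 47558 and 42292, or 0.210% and 0.217%. After scaling by TMM (trimmed mean of M-values), the sum was 1.15 times the control in MDA-MB-231 (1.13 to 1.16) and 1.15 times in MDA-MB-435 (1.13 to 1.16). With library totals in place of TMM these ratios were 1.09 and 1.03, so their size rests on the scaling. ZNF genes on other chromosomes gave 1.10 (1.09 to 1.11) and 1.16 (1.15 to 1.17), and other chromosome 19 genes 1.07 and 1.11.

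Of the 263 members, 229 had at least 10 counts in a library of MDA-MB-231 and were tested there, and 207 in MDA-MB-435. Both lines tested 205 members, 24 were tested in MDA-MB-231 alone, 2 in MDA-MB-435 alone and 32 in neither, and 18 members had no count in any library. Of the tested members, 5 in the MDA-MB-231 line and 9 in the MDA-MB-435 line reached 10 counts in a single condition. Per kb of exon, the median level of the 231 members with 10 counts in any library was 2.14 CPM (counts scaled to a common library size) in the MDA-MB-231 control and 1.05 in the MDA-MB-435 control, against 2.38 and 2.38 over all 18706 such genes. The members with the highest mean control level per kb were ZNF146, ZNF114, ZNF428, ZNF317 and ZNF700. ZNF146, which consists almost wholly of fingers and has no KRAB domain, stood at 46.7, 57.4, 21.0 and 25.4 CPM per kb in the MDA-MB-231 control, MDA-MB-231 CPYPP, MDA-MB-435 control and MDA-MB-435 CPYPP libraries. ZNF428, with 15.8, 14.9, 9.54 and 9.11, and ZNF700, with 10.4, 7.47, 6.70 and 5.65, were also higher in MDA-MB-231 than in MDA-MB-435.

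The response to CPYPP was mostly small. Called here means an adjusted p under 0.05 (Benjamini-Hochberg over all genes tested) and a fold change over 2. In MDA-MB-231, 6 of 229 members were called higher (2.62%) and 5 lower (2.18%), against 4.22% and 3.09% of all 16441 genes tested. In MDA-MB-435, 8 of 207 were called higher (3.86%) and 6 lower (2.90%), against 3.17% and 6.52% of all 16527 genes. These shares lie near or under those of all genes, and are no result about the members. The median log2 fold change of the members was 0.13 in MDA-MB-231 (all genes −0.01) and 0.07 in MDA-MB-435 (all genes −0.01), and the MDA-MB-435 median turned to −0.08 with library totals and −0.05 with upper-quartile scaling. Library totals moved the median of all genes to −0.08 (MDA-MB-231) and −0.16 (MDA-MB-435). Another scaling shifts the members and all genes by the same amount, so the gap between their medians cannot change with it.

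With no minimum fold, 73 members in MDA-MB-231 passed the threshold upward and 23 downward, or 31.9% and 10.0%, against 24.2% and 20.9% of all genes. In MDA-MB-435 the numbers were 51 and 30, or 24.6% and 14.5%, against 27.6% and 23.2%. With library totals the split was 56 up and 36 down for MDA-MB-231 (24.5% and 15.7%), against 19.4% and 27.4% of all genes. For MDA-MB-435 it was 39 up and 51 down (18.8% and 24.6%), against 17.5% and 36.1% of all genes. Upward and downward shifts of less than 2-fold were thus split differently by scaling, and a direction of the group as a whole in MDA-MB-435 was not settled.

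**Figure D1:**
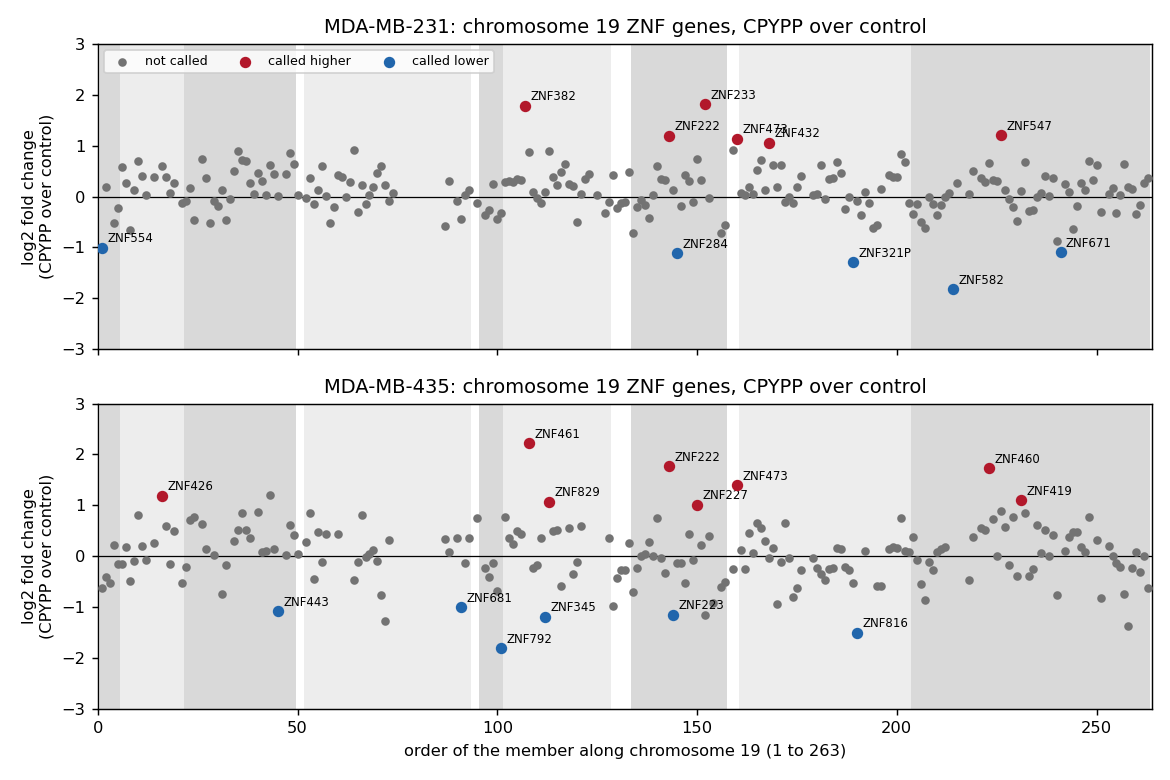
Log2 fold change of CPYPP over control for each tested member, in MDA-MB-231 (top) and MDA-MB-435 (bottom), by the order of the 263 members along chromosome 19; grey bands are the 9 position clusters. Most points lie near 0, the called members (red higher, blue lower) are spread over the chromosome, and ZNF222 and ZNF473 are called higher in both lines.

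The members that moved together in both lines were found with a common test, an edgeR quasi-likelihood model over the 4 libraries with the cell line as a block, whose only repeat is the lines themselves (1 residual degree of freedom). Of 228 members tested, 8 rose (3.51%) and 2 fell (0.877%), against 4.39% and 2.85% of all 16801 genes. The risers were ZNF222, ZNF473, ZNF829, ZNF426, ZNF227, ZNF761, ZNF317 and ZNF417, and ZNF865 and ZNF180 fell.

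ZNF222, a C2H2 zinc finger gene of chr19:44025342-44033110, had 143 counts in the MDA-MB-231 control, 240 in MDA-MB-231 CPYPP, 60 in the MDA-MB-435 control and 159 in MDA-MB-435 CPYPP. Both treated libraries were above both controls. Treated cells had 2.29 times the control level (1.85 to 2.84) in MDA-MB-231 and 3.42 (2.52 to 4.68) in MDA-MB-435, and the common log2 fold change was 1.42 (SE 0.25, edgeR adjusted p = 0.00846).

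ZNF473, also called ZFP100, is a component of the U7 small nuclear ribonucleoprotein pathway that processes the 3′ ends of replication-dependent histone mRNAs. Its counts were 687, 1107, 636 and 1294 in the same order of libraries. CPYPP raised it 2.2-fold (2.0 to 2.42) in MDA-MB-231 and 2.62 (2.38 to 2.89) in MDA-MB-435, with a common log2 fold change of 1.22 (SE 0.14, edgeR adjusted p = 0.000722). Per kb of exon its level went from 4.45 to 9.71 CPM for MDA-MB-231 and from 3.89 to 9.69 CPM for MDA-MB-435, so that the levels of the lines were close in both conditions. VRK3, a kinase-related gene that overlaps ZNF473 on the other strand, had 552, 561, 396 and 470 counts and fold changes of 1.39 and 1.53; the library protocol marks no strand, so reads of the shared stretch cannot be told apart.

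The other risers changed less. ZNF829 had 225, 307, 106 and 173 counts, with fold changes of 1.86 (1.56 to 2.22) and 2.10 (1.64 to 2.71). ZNF426 had 711, 785, 386 and 681 counts, and its fold change of 1.51 (1.36 to 1.67) in MDA-MB-231 and 2.27 (2.0 to 2.58) in MDA-MB-435 have intervals that do not meet. ZNF227 had 296, 364, 445 and 695 counts and fold changes of 1.68 (1.44 to 1.96) and 2.01 (1.79 to 2.27). In all 3 genes both lines went upward, with the larger value in MDA-MB-435.

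ZNF761 had 762, 998, 198 and 260 counts, with fold changes of 1.79 (1.63 to 1.97) and 1.69 (1.40 to 2.05). ZNF317 had 1035, 1234, 1202 and 1630 counts, with fold changes of 1.63 (1.5 to 1.77) and 1.75 (1.62 to 1.89). ZNF417 had 340, 404, 170 and 224 counts, with fold changes of 1.62 (1.40 to 1.88) and 1.70 (1.39 to 2.09). For these 3 genes the values of the lines lay within each other's intervals. Common log2 fold changes of ZNF829 to ZNF417, in the order above, ran from 0.94 (SE 0.21) down to 0.69 (SE 0.18), with edgeR adjusted p from 0.00707 to 0.0477. TPM3P9, a pseudogene that overlaps ZNF761 on the same strand, had fold changes of 1.46 and 1.38.

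ZNF865 had 229, 110, 442 and 189 counts, 0.656-fold the control (0.517 to 0.827) in MDA-MB-231 and 0.551 (0.463 to 0.655) in MDA-MB-435, and a common log2 fold change of −0.79 (SE 0.21, edgeR adjusted p = 0.0472). ZNF180 had 624, 277, 311 and 158 counts, with fold changes of 0.606 (0.524 to 0.699) and 0.655 (0.537 to 0.796) and a common log2 fold change of −0.71 (SE 0.17, edgeR adjusted p = 0.0356). Both genes were lower after CPYPP in each line. The 10 members are scattered over 6 position groups, and ZNF222, ZNF227 and ZNF180 share the group from ZNF575 to ZNF296.

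**Figure D2:**
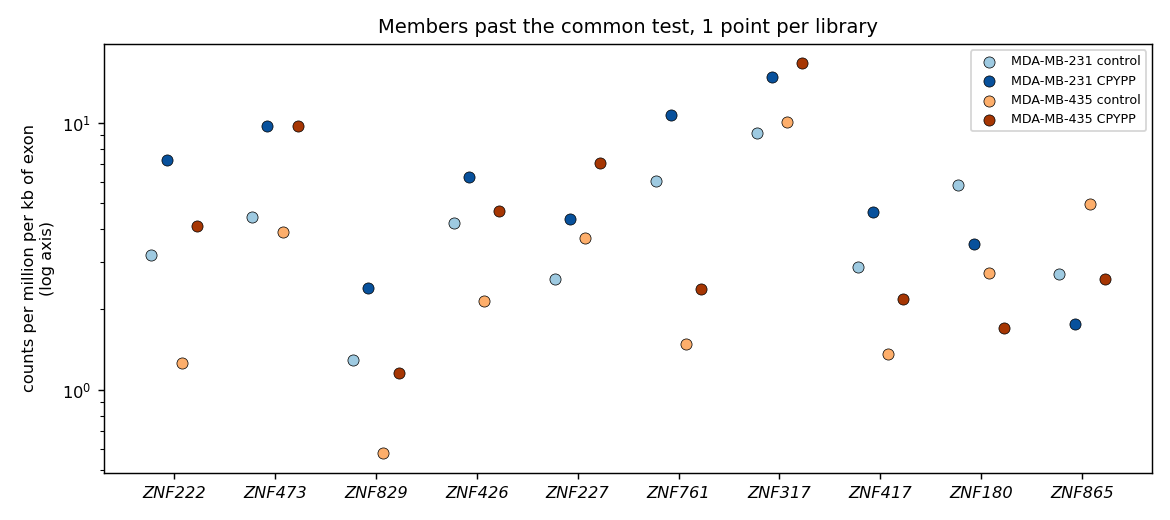
Level of the 10 members past the common test in CPM per kb of exon (log axis), 1 point per library, controls pale and CPYPP dark. In the first 8 genes each dark point lies above the pale point of its line, and in ZNF180 and ZNF865 below it, while the lines start at different levels, as in ZNF761 (6.05 and 1.49 in the controls).

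Other members were called in a single line. In MDA-MB-231 the largest called rise among members with 50 counts in a library was ZNF382, a KRAB repressor, with 51 and 129 counts and a fold change of 3.45 (2.48 to 4.87); MDA-MB-435 had 2 and 5 counts, too few to test. ZNF547 followed with 72 and 122 counts and a fold change of 2.31 (1.71 to 3.14), beside 34 and 49 counts in MDA-MB-435. ZNF529, which overlaps ZNF382 on the other strand, had a fold change of 1.25, and TRAPPC2B, which overlaps ZNF547 on the same strand, 1.31.

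The largest called falls in MDA-MB-231 were ZNF284, ZNF671 and ZNF554. ZNF284 went from 112 to 38 counts, 0.463-fold (0.312 to 0.675), and in MDA-MB-435 from 116 to 82. ZNF671 went from 90 to 31 counts, 0.470-fold (0.302 to 0.714), and had 0 and 3 counts in MDA-MB-435. ZNF554 went from 85 to 31 counts, 0.498-fold (0.319 to 0.759), and MDA-MB-435 had 36 and 18 counts, where its fold change of 0.645 (0.345 to 1.17) did not pass the test. The remaining called members of MDA-MB-231 were ZNF233 and ZNF432 upward and ZNF582 (29 and 6 counts) and ZNF321P (30 and 9 counts) downward.

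In MDA-MB-435 the largest called rises with 50 counts in a library were those of ZNF222, ZNF460 and ZNF473. ZNF460 went from 35 to 90 counts, 3.32-fold (2.22 to 5.05), against 51 and 59 counts and 1.58 (1.07 to 2.34) in MDA-MB-231. ZNF792 showed the largest fall, from 231 to 51 counts, 0.285-fold (0.206 to 0.387), and in MDA-MB-231 went from 199 to 116 counts, 0.796-fold (0.627 to 1.01). ZNF816 went from 66 to 18 counts, 0.352-fold (0.196 to 0.599), and ZNF443 from 93 to 34, 0.471-fold (0.309 to 0.705). Both stood near 1 in MDA-MB-231, at 0.946 (0.730 to 1.22) and 1.00 (0.764 to 1.31). The remaining called members were ZNF461 (8 and 29 counts), ZNF426, ZNF829, ZNF227 and ZNF419 upward and ZNF345, ZNF223 and ZNF681 downward.

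Of the 23 members called in at least 1 line, 2 were called higher in both, none lower in both and none in opposite directions. Over the 205 members tested in both lines the 2 are 0.976%, against 1.04% of the 14262 genes tested in both, of which 0.989% were called lower in both and 0.0912% in opposite directions. With no minimum fold, 29 passed upward in both lines (14.1%, against 16.9% of all genes), 6 downward in both (2.93%, against 10.3%) and 6 in opposite directions (2.93%, against 4.82%). The values furthest apart with opposite signs among called members were those of ZNF233, with 7 and 18 counts in MDA-MB-231, 3.51-fold (1.40 to 9.94), and 20 and 7 counts in MDA-MB-435, 0.451 (0.161 to 1.11). ZNF223 had fold changes of 1.09 and 0.450, ZNF345 of 1.06 and 0.439, ZNF432 of 2.08 and 0.969, and ZNF443 of 1.00 and 0.471. In each of these 5 genes the interval of 1 of the lines held 1. ZNF841, which overlaps ZNF432 on the same strand, had fold changes of 1.54 and 1.12. Over the 205 members that both lines tested, log2 fold changes correlated with Pearson's r = 0.39 and Spearman rho = 0.41, and 132 (64.4%) had the same sign; this is a description across genes that share libraries and depth, and genes are not independent replicates.

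The position along the chromosome was described with clusters, where a gap of at least 1 Mb between the starts of neighbouring members begins a new cluster. This gave 17 groups, of which 9 had at least 5 tested members in a line, and the other 8 groups held 12 members. Summed over members, 7 of the 9 clusters had a TMM-scaled ratio above 1 in both lines, and in 5 of these both intervals lay above 1. The other named chromosome 19 genes also summed to above 1 on this scaling, at 1.07 and 1.11. A ratio above 1 is thus not particular to the clusters. With library totals, ZNF575 to ZNF296 and ZNF628 to ZNF446 lay below 1 in both lines, and ZNF175 to ZNF331 in MDA-MB-435.

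The highest ratio was that of ZNF557 to ZNF846 (chr19:7069703-9793180, 16 members), at 1.29 (1.25 to 1.33) in MDA-MB-231 and 1.31 (1.27 to 1.35) in MDA-MB-435. Its counts were 7986 and 7563 in MDA-MB-231, control first, then 7066 and 7172. This cluster holds ZNF426, ZNF317 and ZNF121, which gave the most counts. ZNF565 to ZNF573 (chr19:36182276-37817300, 27 members) followed at 1.22 (1.19 to 1.26) and 1.22 (1.17 to 1.28), and ZNF653 to ZNF791 (chr19:11483427-12640098, 28 members) at 1.17 (1.12 to 1.22) and 1.17 (1.11 to 1.23). In these 3 clusters the lines gave close ratios, above 1 also with library totals, at which the lowest was 1.05. ZNF101 to ZNF254 (chr19:19668796-24129968, 42 members) had 1.08 (1.05 to 1.11) and 1.14 (1.09 to 1.19).

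Lower ratios were found in ZNF807P to ZNF792 (chr19:34542462-34964229, 6 members), at 0.795 (0.729 to 0.866) and 0.680 (0.610 to 0.759), where ZNF302 gave the most counts and ZNF792 the largest fall. ZNF554 to ZNF77 (chr19:2819868-2944971, 5 members) had 0.850 (0.711 to 1.01) and 0.770 (0.675 to 0.877). ZNF175 to ZNF331 (chr19:51571283-53580269, 43 members) had 1.14 (1.11 to 1.16) in MDA-MB-231 and 1.01 (0.974 to 1.05) in MDA-MB-435, and the lines' intervals did not meet. ZNF575 to ZNF296 (chr19:43525497-45076478, 24 members) had 1.03 (0.988 to 1.08) and 1.11 (1.06 to 1.16). In the largest cluster, ZNF628 to ZNF446 (chr19:55476617-58481230, 60 members), the ratios were 1.05 (1.02 to 1.07) and 1.10 (1.07 to 1.13), and with library totals 0.998 and 0.991. Its member with the most counts, ZNF274, is known to bring SETDB1 to the 3′ ends of ZNF genes, and had 1225, 1003, 865 and 669 counts, with fold changes of 1.12 (1.03 to 1.22) and 0.997 (0.900 to 1.10).

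Neighbouring genes could move apart. Between ZNF230 and ZNF224, over members at chr19:44002957 to chr19:44094361, ZNF230 had fold changes of 1.26 and 0.798, ZNF222 rose in both lines, ZNF223 had 1.09 and 0.450, ZNF284 had 0.463 and 0.912, and ZNF224 had 0.884 and 0.914. ZNF829 and ZNF345 overlap on opposite strands, and in MDA-MB-435 their fold changes were 2.10 and 0.439. Over 198 pairs of adjacent tested members of a cluster, the log2 fold changes had Pearson r = 0.28 in MDA-MB-231, with 133 pairs of the same sign (67.2%), and over 166 pairs in MDA-MB-435 r = 0.15, with 100 of the same sign (60.2%). Adjacent genes can overlap and share reads, and these are descriptions across genes.

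The lines differed far more from each other than either did after treatment. In the MDA-MB-435 control 112 of 231 members were called lower than in the MDA-MB-231 control (48.5%) and 10 higher (4.33%), against 20.9% lower and 22.2% higher among all 18269 genes tested. The median log2 ratio was −0.97 (all genes 0.01), against −0.10 for ZNF genes on other chromosomes and 0.28 for other chromosome 19 genes. Of the 231 tested members, 26 reached 10 counts in the MDA-MB-231 control alone and 3 in the MDA-MB-435 control alone. With 10 counts asked of both controls, 87 of 202 members were called lower (43.1%) and 7 higher (3.47%). Among all 13879 genes so tested, 14.7% were lower and 15.9% higher. Summed over all members, detected or not, the ratio was 0.516 (0.510 to 0.522). The treated libraries repeated the order: in 161 members with 10 counts (69.7%) both MDA-MB-435 libraries lay below both of MDA-MB-231, and in 31 above, against 37.6% and 36.8% of all 18706 genes. The line term of the edgeR quasi-likelihood model, with treatment as a block, gave 146 of 228 members lower in MDA-MB-435 and 15 higher at an adjusted p under 0.05, against 32.4% and 30.5% of all genes. Each line is 1 culture, so this tests the libraries of the lines and not lines of a kind.

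**Figure D3:**
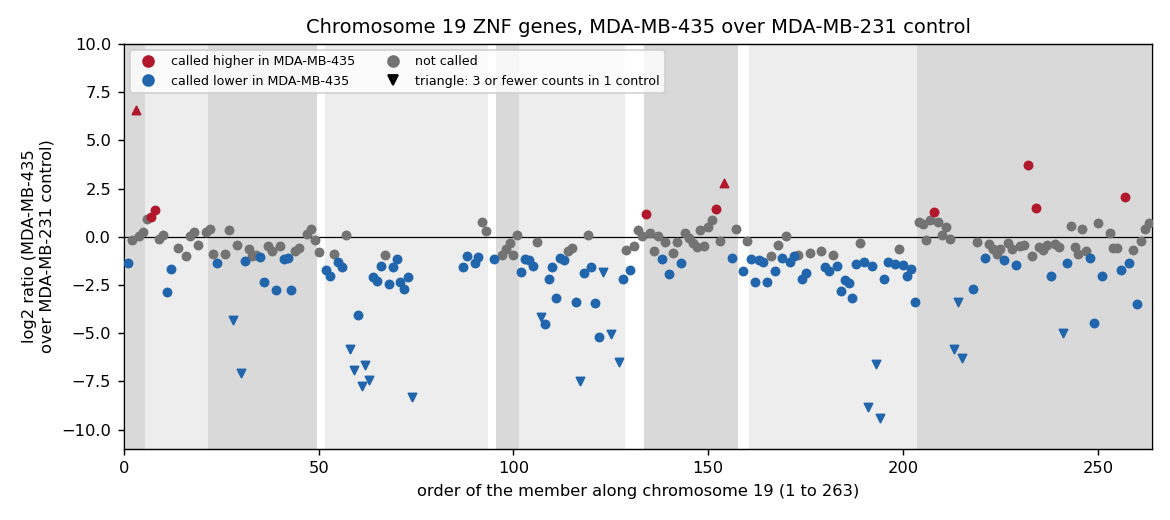
Log2 ratio of the MDA-MB-435 control over the MDA-MB-231 control for each tested member, by order along chromosome 19, with grey bands for the 9 position clusters. Triangles have 3 or fewer counts in a control and are drawn at the value of 3 counts, and 112 points called lower (blue) stand against 10 called higher (red).

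Many of the members low in MDA-MB-435 were almost without reads. In all, 15 members had at least 50 counts in both MDA-MB-231 libraries and at most 3 in both of MDA-MB-435, and 1, ZNF556, was the reverse (all genes 1.87%). The 15 are 7.32% of the 205 members with 50 counts in both libraries of a line, against 3.48% of all 12722 such genes. They are ZNF439, ZNF682, ZNF90, ZNF826P, ZNF737, ZNF626, ZNF43, ZNF585B, ZNF571, ZNF607, ZNF702P, ZNF415, ZNF347, ZNF542P and ZNF583, and 6 of them lie in the ZNF101 to ZNF254 cluster.

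ZNF347 had 1886 and 895 counts in MDA-MB-231, control first, and 0 in both MDA-MB-435 libraries, so it was at least 674-fold lower in the MDA-MB-435 control (a count of 0 is set to 3 in each library). ZNF702P, a pseudogene, had 1293 and 736 counts against 0 and 0, 462-fold lower on this scale (lower limit 375). ZNF43 had 897 and 694 counts against 0 and 0, 320-fold lower (lower limit 260). ZNF826P, another pseudogene, had 595 and 568 against 0 and 0, 213-fold lower (lower limit 172), and ZNF585B 492 and 564 against 2 and 0. These genes were thus well above the floor in MDA-MB-231 with and without CPYPP, and at it in MDA-MB-435. ZNF415, which overlaps ZNF347 on the same strand, had 269 and 180 against 0 and 0 counts.

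The members highest in MDA-MB-435 over MDA-MB-231 were fewer. ZNF556 had no count in MDA-MB-231, and 312 and 168 counts in MDA-MB-435, at least 97.0-fold higher in the control. ZNF773 had 12 and 14 against 167 and 234 counts, 13-fold higher (7.24 to 25.6). ZNF497 had 14 and 16 against 63 and 29 counts, ZNF550 253 and 155 against 759 and 496, and ZNF414 140 and 65 against 389 and 216, with control ratios of 4.20, 2.80 and 2.59. Among these genes, ZNF556 alone had reads in MDA-MB-435 and none in MDA-MB-231. A1BG-AS1, which overlaps ZNF497 on the other strand, had a control ratio of 4.42.

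The difference between the lines varied along the chromosome. The median log2 control ratio was −1.85 in ZNF565 to ZNF573 (21 of 25 tested members called lower), −1.72 in ZNF101 to ZNF254 (24 of 29) and −1.48 in ZNF175 to ZNF331 (31 of 40), with no member called higher in these 3 clusters. It was −0.89 in ZNF653 to ZNF791 (10 of 26) and −0.55 in ZNF628 to ZNF446 (16 of 56). It was −0.20 in ZNF575 to ZNF296 (4 of 23) and 0.06 in ZNF557 to ZNF846 (2 of 13). The small clusters ZNF807P to ZNF792 and ZNF554 to ZNF77, with 5 tested members each, had −0.66 and 0.06. The 3 clusters with the lowest medians also had the lowest ratios of summed counts among the 9 described, with 0.297 (0.289 to 0.306) in ZNF175 to ZNF331, 0.315 (0.304 to 0.325) in ZNF101 to ZNF254 and 0.378 (0.365 to 0.391) in ZNF565 to ZNF573. The ratio was 0.616 in ZNF653 to ZNF791, 0.626 in ZNF807P to ZNF792, 0.727 in ZNF628 to ZNF446 and 0.826 in ZNF575 to ZNF296. In ZNF557 to ZNF846 it was 0.826 (0.799 to 0.852), below 1 although the median lay above 0. It was highest in ZNF554 to ZNF77, at 1.73 (1.51 to 1.98), which fell to 0.855 without ZNF556. Other named genes lying wholly inside the spans had medians of −1.90 (8 tested, ZNF565 to ZNF573), −2.30 (8, ZNF101 to ZNF254), −0.80 (7, ZNF175 to ZNF331), 1.21 (5, ZNF653 to ZNF791), −0.59 (24, ZNF628 to ZNF446), −0.09 (22, ZNF575 to ZNF296) and −0.07 (30, ZNF557 to ZNF846). These sets can hold ZNF antisense and read-through genes, such as ZNF433-AS1 and ZNF625-ZNF20. Some of these overlap members, and reads of a shared stretch cannot be told apart. Over 201 adjacent pairs the control ratios had r = 0.40, and 155 pairs (77.1%) had the same sign.

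**Figure D4:**
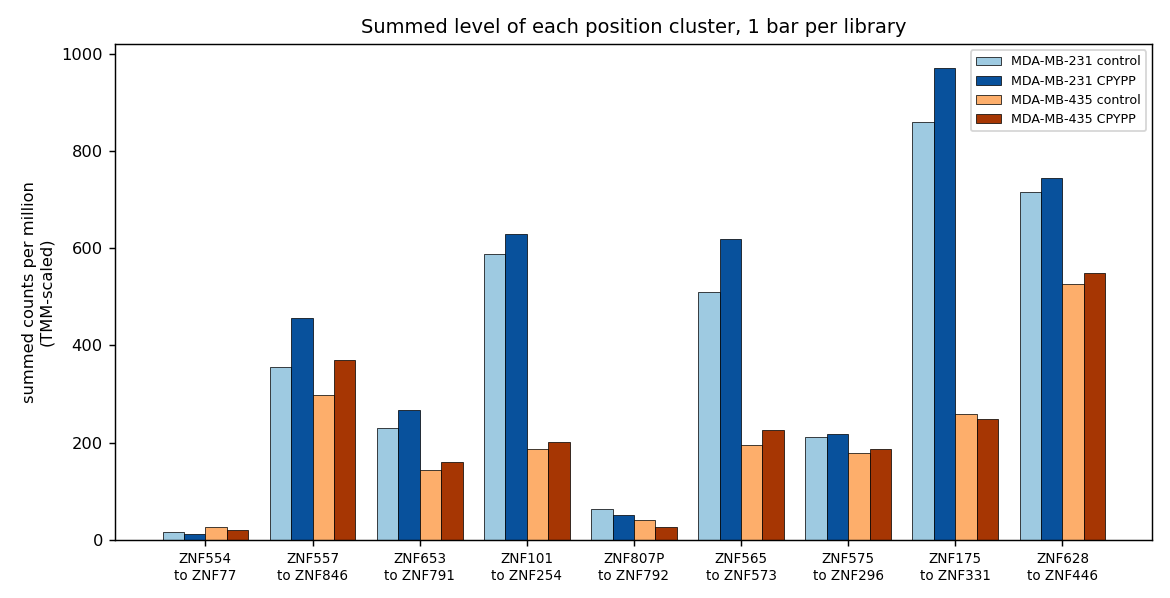
Summed TMM-scaled CPM of the members of each of the 9 position clusters, 1 bar per library, in chromosome order. In ZNF101 to ZNF254, ZNF565 to ZNF573 and ZNF175 to ZNF331 both MDA-MB-231 bars are more than 2 times as high as both MDA-MB-435 bars, while control and CPYPP bars of a line are closer to each other.

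The genes that KRAB zinc finger proteins work through were measured with a list of 36 names for cofactors of the pathway, which matched 34 genes of the table, the other 2 names being older symbols. With the common test 0 rose and 1 fell, against 4.39% and 2.85% of all genes. The 1 that fell was UHRF1, which guides maintenance DNA methylation, with 3543, 1643, 5056 and 3226 counts and a common log2 fold change of −0.51 (SE 0.12, edgeR adjusted p = 0.0279). At an adjusted p under 0.05 with a fold over 2, 1 cofactor was called in MDA-MB-231, ATF7IP2 (10 and 22 counts), and none in MDA-MB-435. TRIM28, the scaffold itself, had 7060, 4970, 7004 and 5634 counts and fold changes of 0.961 and 1.04, and SETDB1, its methyltransferase partner, 716, 485, 554 and 370 counts with 0.925 and 0.861. Between the lines, the line term gave 9 cofactors higher (26.5%) and 13 lower (38.2%) in MDA-MB-435, near the 30.5% and 32.4% of all genes. TRIM28 differed by a log2 value of −0.07 (edgeR adjusted p = 0.595), whereas SETDB1 was lower in MDA-MB-435, at −0.53 (edgeR adjusted p = 0.0107).

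The number of fingers, the exonic length and the KRAB A pattern were set beside the changes, across genes and with no test. Against the log2 fold change, Spearman rho for fingers was 0.13 in MDA-MB-231 (220 members), 0.01 in MDA-MB-435 (201 members) and −0.14 for the control ratio (222 members). For exonic length the values were 0.15, 0.02 and −0.17. Members with the KRAB A pattern had a median log2 control ratio of −1.15, with 94 of 167 called lower and 3 higher. Coding members without it had −0.13, with 12 of 55 lower and 7 higher, and pseudogenes −1.36, with 6 of 9 lower. Among all genes 20.9% were called lower. The pattern is strict and its share varies between clusters, so it was not told apart from position. CTTCCG was in 48.3% of the promoter windows of members called lower in the MDA-MB-435 control (116 windows of 91 genes) and in 60.6% of those tested and not called lower (127 windows of 107 genes).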

How the data were processed

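The authors deposited whole-number read counts per gene for the 4 libraries; per the labels' processing notes, reads were trimmed with cutadapt 1.9.1, aligned with HISAT2 2.2.1 and counted with HTSeq 0.6.1. The notes name GRCh37 (patch 13), but 58241 of the 58254 genes shared with GENCODE v29 lie at their GRCh38 positions, as do all 263 members, so coordinates are GRCh38. The annotation used and the strand setting are not given in the sources used here, and 197 members overlap another gene of the table (148 of them 1 on the other strand), whose reads may be shared or dropped. Reads of near-identical family members may also be split or lost in counting.

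Depth was 17196385 to 22663954 counts a library. Counts were scaled by TMM (edgeR 4.0.16, R 4.3.3) for each pair of libraries over genes with at least 10 counts in 1 of them. Pairs were compared with edgeR's binomial test of the reads, adjusted by Benjamini-Hochberg over all genes tested and called at an adjusted p under 0.05 and a fold over 2; counts of 3 or fewer were set to 3 per library. Intervals (95%, Clopper-Pearson) cover counting error, and PCR copies are not independent molecules. The common and line effects used edgeR's quasi-likelihood test over 4 libraries (common dispersion 0.0146), tested on simulated data beforehand, with DESeq2 1.42.0 as an alternative. Levels across libraries use a common TMM scaling.

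Genes were named by rule: the 10 largest common rises and falls past the common test, the 3 largest called rises and falls of each line with at least 50 counts in a library, the 5 highest control levels per kb, the 5 largest opposite changes among called members, and the 5 highest and 5 lowest called control ratios with 50 counts. Other called members, the 15 near absent from MDA-MB-435, the members named along the chromosome and the 6 opposite members were named after their values were seen. The members, lists and motifs were chosen with earlier results of these data known. Fingers and KRAB boxes were counted by pattern in translated GENCODE v29 coding sequences, since a protein table was not used here; promoters are RefSeq's. Alternatives tried were other scalings, filters on low counts, assumed variation, fold thresholds, cluster gaps and DESeq2.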

Additional observations from a re-analysis of the deposited data

Results flagged for a closer look

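At an adjusted p under 0.05 with no minimum fold, 6 members lay on opposite sides of their control in the 2 lines, or 2.93% of those tested in both, against 4.82% of all genes. They are given because every library pair of the lines went the opposite way; each line has 1 pair, so the difference between the lines was not tested. The log2 fold change in MDA-MB-435 minus that in MDA-MB-231 was −1.36 for ZNF493 (286 to 319 counts in MDA-MB-231, 61 to 28 in MDA-MB-435), −1.40 for ZNF546 (142 to 139, and 94 to 37), −0.94 for ZNF225 (172 to 168, and 126 to 68), −1.17 for ZNF114 (2048 to 2838, and 633 to 413), −0.67 for ZNF528 (715 to 695, and 422 to 272) and 1.12 for ZNF552 (130 to 61, and 98 to 106). ZNF114 carried the most counts, with fold changes of 1.89 (1.79 to 2.0) and 0.841 (0.741 to 0.954). In 5 of the 6 the MDA-MB-231 value was the higher.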

How the results depend on the processing

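The labels give no replicate numbers, and the pairing by cell line is the block of the common test. The per-line calls rest on counting error. Assuming a biological coefficient of variation (BCV) of 0.1, 2 members were called lower in MDA-MB-231 (0.873%, against 1.73% of all genes). At a BCV of 0.2, 1 member was called higher in MDA-MB-231 (0.437%) and 0 lower, against 0.687% and 0.262% of all genes. MDA-MB-435 kept 2 higher (0.966%) and 1 lower (0.483%), where all genes gave 0.750% and 0.889%. With 0.4, 0 members were called in either line. At most 0.0787% of all genes were then called in a direction, so this is no result about the members. The cause of each of these losses is the larger spread assumed. For the controls, 0.4 left 3 higher and 35 lower.

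A fold over 1.5 gave 34 higher and 10 lower for MDA-MB-231, then 26 and 17 for MDA-MB-435, and no minimum fold gave 73 and 23, then 51 and 30. No share of all genes stands beside the counts at 1.5, so they are no result about the members. Asking for 10 counts in both libraries left 3 lower in MDA-MB-231 (1.34%, against 1.84% of all genes). Asking for 50 summed also left 3 (1.39%, against 1.97%), and both filters tested fewer genes. In MDA-MB-435, library totals gave 5 higher and 10 lower and the upper quartile 5 higher. Members that overlap no other gene, a choice made after seeing the data that leaves 66 members, gave 0 higher and 1 lower for MDA-MB-231, 2 and 2 for MDA-MB-435, and 2 and 27 in the controls. These counts too have no share of all genes beside them and are no result about the members.

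The median log2 fold change in MDA-MB-435 turned negative with library totals (-0.083) and the upper quartile (-0.045), and kept its sign with DESeq2's size factors and every filter. The ratio of summed counts in MDA-MB-231 was 1.09 with library totals and 1.13 over members that overlap no other gene, in MDA-MB-435 1.03 and 1.19, and in the controls 0.546 and 0.606, with 0.529 over protein-coding members. Cluster ratios crossed 1 with library totals in ZNF575 to ZNF296 (MDA-MB-231 0.984, MDA-MB-435 0.997), ZNF628 to ZNF446 (0.998 and 0.991) and, in MDA-MB-435, ZNF175 to ZNF331 (1.01 to 0.913), and the control ratio of ZNF554 to ZNF77 went from 1.73 to 0.855 without ZNF556.

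In the common test, DESeq2's Wald test gave 14 higher (6.14%, against 7.52% of all genes). Library totals gave 5 lower (2.19%, against 6.47% of all genes). Without the cell line block 0 members rose and 0 fell, with 2 higher and 0 lower at an unadjusted p under 0.05. Over all 16801 genes 0 rose and 0 fell as well, so this is no result about the members. The cause was not tested.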
